A study of Mus musculus with 11 samples.

Results

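The 7 genes described here belong to the MHC class II antigen-presentation machinery and were followed through paracetamol injury of the mouse liver, out of 31053 genes in the spatial data. They were chosen by name, namely H2-Aa, H2-Ab1, H2-Eb1, H2-DMa, H2-DMb1, Cd74 and Ciita, and all 7 were found by symbol. The data were 11 Visium sections, each 1 library, of which 3 were uninjured (0 h, replicates 2, 3 and 4) and 8 came from livers after paracetamol (acetaminophen, APAP), sampled 24 h (2 sections, A and B), 36 h (2 sections, A and B) or 48 h (4 sections, A to D) after the dose. The study's methods give C57BL/6JCrl mice that were fasted before intraperitoneal APAP, and a single liver per time point for this assay, so n counts sections, the tests measure the spread between sections, and mouse, time and any batch cannot be told apart. Visium captures polyadenylated RNA on a grid of barcoded spots, each wide enough to hold several cells, and a unique molecular identifier (UMI) marks each captured molecule. After filtering, sections held 1490 to 3466 spots and 31292663 to 67045372 UMIs, with a median of 15169 to 29950 UMIs per spot. The labelled tissue carried its defining transcript, since Alb averaged between 48570 and 66580 UMIs per 1000000 (CPM) at every time.

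MHC class II molecules display peptides from endocytosed proteins to CD4+ T cells. An alpha and a beta chain pair in the endoplasmic reticulum with the invariant chain, which blocks the groove and guides the complex to endosomes, where proteases trim the invariant chain and the H2-DM heterodimer exchanges its last fragment for peptide. Transcription of these genes is set largely by CIITA, a coactivator that does not bind DNA itself but joins the RFX, CREB and NF-Y factors assembled on the X and Y boxes of class II promoters, and that is induced by interferon gamma. In liver the constitutive expressors are dendritic cells, B cells and Kupffer cells, the resident macrophages, while sinusoidal endothelium expresses class II at lower levels.

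Of these genes 5 lie within 197 kb of the MHC region of chromosome 17 (GRCm38, GENCODE vM21). H2-Aa, the I-A alpha chain, lies on the minus strand at chr17:34282744-34287823. H2-Ab1, the I-A beta chain, lies at chr17:34257689-34269419 and H2-Eb1, the I-E beta chain, at chr17:34305867-34316674, both on the plus strand. The H2-DM subunits lie on the plus strand at chr17:34119541-34139101 (H2-DMa) and chr17:34153072-34160230 (H2-DMb1), and the latter has a close paralog, H2-DMb2, at chr17:34143307-34151555, so the split of reads between these copies is uncertain. Ciita lies apart, on the plus strand at chr16:10480059-10528418.

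Promoter windows from RefSeq (GRCm38.p6, 250 bases before to 50 after the start site) were found for 4 of the 7 genes, H2-Aa, H2-Eb1, H2-DMa and H2-DMb1. They are shown because the shared boxes are the feature through which these genes are known to be regulated together. Both strands were searched for a Y box (ATTGG, the inverted CCAAT motif) and an X1 box (AGNNAC directly followed by NNATG). A Y box stood in the windows of H2-Aa, H2-Eb1 and H2-DMb1 and in 1 of the 2 windows of H2-DMa, against 37.4% of all 32851 windows. The X1 letters stood in those of H2-Eb1 and H2-DMb1, against 3.09% of all windows. In both, the Y box followed on the same strand, its first base 23 bases after the end of the X1 box in H2-Eb1 and 24 bases after it in H2-DMb1. An X1 box with a Y box 15 to 40 bases downstream was found in 29 of 32851 windows (0.0883%). These matches describe letters and are no measure of factor binding. Printed 5′ to 3′ on the gene's strand with X1 and Y matches in capitals, in either orientation, the stretches are as follows. The first spans chr17:34287824-34287963 on the minus strand and the second chr17:34305727-34305866 on the plus strand. The last is a short stretch at chr17:34153096-34153125 on the plus strand that begins with the X1 box and ends before the Y box. It lies inside H2-DMb1 as GENCODE places the gene, because the RefSeq start site used here lies downstream of the GENCODE start.
H2-Aa: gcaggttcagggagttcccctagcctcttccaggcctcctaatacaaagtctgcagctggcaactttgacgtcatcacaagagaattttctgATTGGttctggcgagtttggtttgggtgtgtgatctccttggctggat
H2-Eb1: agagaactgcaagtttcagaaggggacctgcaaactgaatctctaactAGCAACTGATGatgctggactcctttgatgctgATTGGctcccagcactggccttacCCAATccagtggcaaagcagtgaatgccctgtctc
H2-DMb1: AGTAACTGATGatgctaggctgattcactc

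Transcripts of the classical chains and of the invariant chain fell after APAP and stayed low to 48 h, whereas the H2-DM subunits fell at 24 h and lay nearer the uninjured level afterwards. Ciita, the least abundant by UMIs, passed no test between whole sections. Levels are CPM of the TMM-scaled section total, summed over the filtered spots, and were tested with edgeR's quasi-likelihood test over 14821 genes with Benjamini-Hochberg adjustment, a gene being called at an adjusted p under 0.05. At 24 h 6 of the 7 genes were lower than at 0 h, against 18.6% of all genes tested that were lower. At 36 h and at 48 h 4 of the 7 were lower, against 12.4% and 20.9%, and without 36 h section A the 36 h count was 1, H2-Aa. The median log2 fold change of the 7 genes was -1.50, -1.22 and -1.33 at 24, 36 and 48 h, beside 0.05, 0.05 and 0.01 over all genes. Scaling by total counts alone moves the latter to 0.37, 0.49 and 0.54, so folds here are relative to the TMM scale. In bulk sums such as these, fewer cells of a type and less RNA per cell cannot be told apart.

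H2-Aa, the alpha chain of I-A, was at 62.2, 63.0 and 76.3 CPM in the 0 h sections 2, 3 and 4. Sections A and B gave 16.2 and 16.1 CPM at 24 h, then 17.5 and 31.1 CPM at 36 h, and the 48 h sections, in letter order, 16.8, 16.5, 27.6 and 32.6 CPM. Every injured section lay below every 0 h section, and among the injured ones 36 h B and 48 h C and D were the highest. Its log2 fold change was -2.06 ± 0.34 (SE) at 24 h (adjusted p = 0.00107, edgeR), -1.47 ± 0.33 at 36 h (adjusted p = 0.00947) and -1.52 ± 0.26 at 48 h (adjusted p = 0.00114).

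H2-Ab1, the partner beta chain, was at 69.6, 75.0 and 93.1 CPM at 0 h. It was at 24.0 and 21.9 CPM at 24 h, 25.6 and 38.7 CPM at 36 h, and 21.4, 20.2, 37.2 and 42.9 CPM at 48 h. The same 3 injured sections stood highest, and none reached a 0 h section. The log2 fold changes were -1.79 ± 0.34, -1.30 ± 0.33 and -1.38 ± 0.27 at 24, 36 and 48 h (edgeR adjusted p = 0.00233, 0.0169 and 0.00222), and the 36 h call was lost without 36 h section A (adjusted p = 0.0939).

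H2-Eb1, the I-E beta chain, which C57BL/6 mice transcribe although they lack an I-E alpha chain, was at 45.0, 46.4 and 57.9 CPM at 0 h. It was at 14.7 and 12.9 CPM at 24 h, 14.9 and 23.9 CPM at 36 h, and 13.7, 12.9, 24.7 and 27.7 CPM at 48 h. Again the groups at 0 h and after APAP did not overlap. Its log2 fold changes were -1.85 ± 0.36, -1.36 ± 0.35 and -1.33 ± 0.27 (edgeR adjusted p = 0.00247, 0.0168 and 0.00333), and its 36 h call too was lost without 36 h section A (adjusted p = 0.0936).

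Cd74, the invariant chain, was at 138, 157 and 203 CPM at 0 h. It was at 67.9 and 64.6 CPM at 24 h, 58.0 and 84.3 CPM at 36 h, and 40.3, 45.4, 71.4 and 100 CPM at 48 h. No injured section reached the lowest 0 h section. Its log2 fold changes were -1.33 ± 0.37, -1.22 ± 0.36 and -1.37 ± 0.29 (edgeR adjusted p = 0.0153, 0.0311 and 0.00395). The 24 h call was lost without 24 h section A or B (adjusted p = 0.0735 and 0.0877), and the 36 h call without 0 h section 3 or 4 or either 36 h section, and under total-count scaling (log2 fold change -0.79, adjusted p = 0.0842). Sections that do not overlap are common here at single times, since 32.1%, 26.2% and 26.6% of all genes tested lay lower without overlap at 24, 36 and 48 h. The share of genes for which all injured sections together lay below those at 0 h is not given here.

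**Figure D1:**
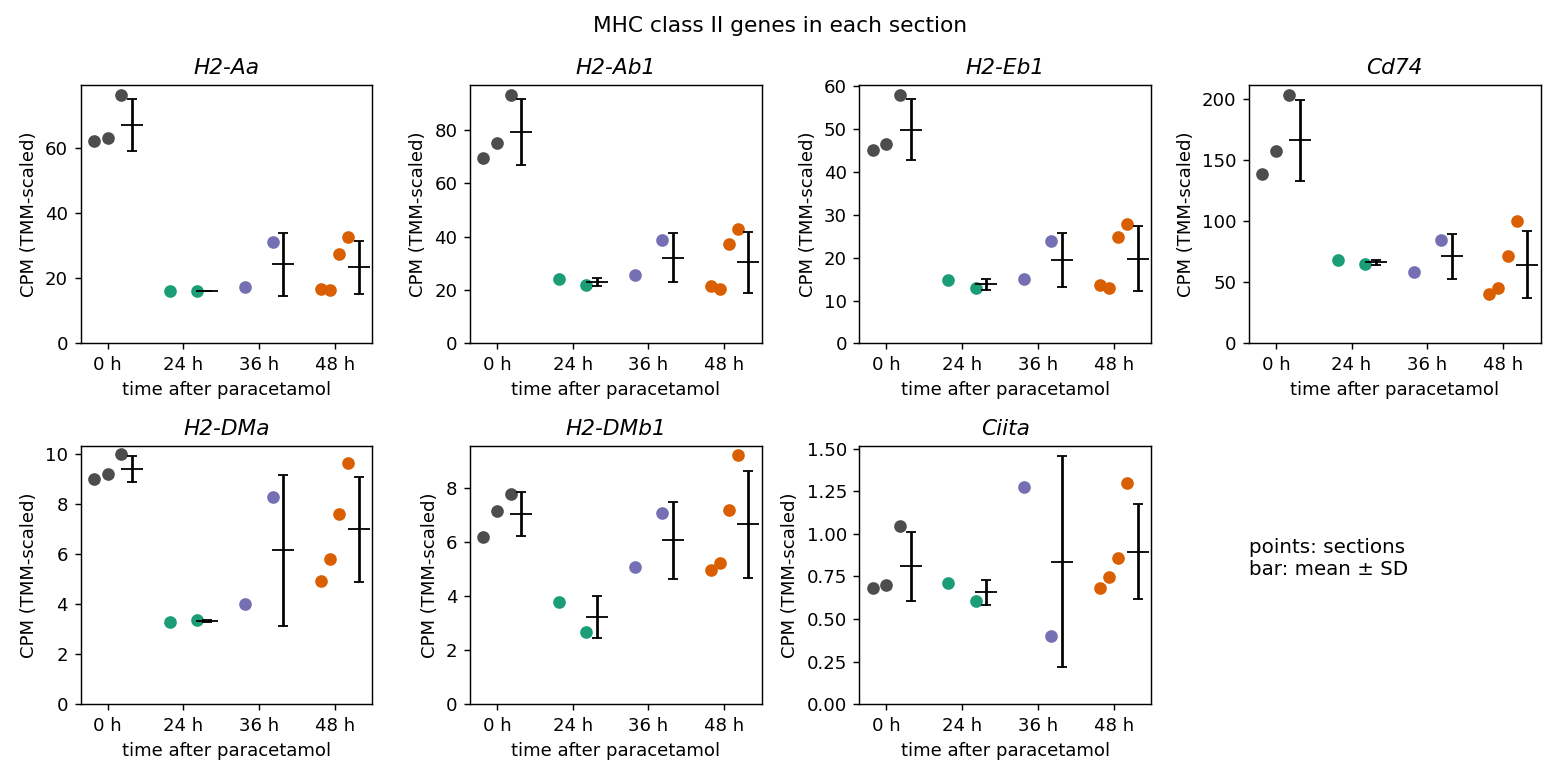
TMM-scaled CPM (y axis, linear from 0) of the 7 genes in each section by time after paracetamol (x axis), with points for sections and bars for the mean ± SD. H2-Aa, H2-Ab1, H2-Eb1 and Cd74 lie lower in all 8 injured sections than in the 3 at 0 h, whereas H2-DMa and H2-DMb1 at 48 h overlap the 0 h range.

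H2-DMa, the alpha subunit of the peptide exchanger, was at 8.98, 9.20 and 9.97 CPM in uninjured sections and at 3.29 and 3.35 CPM by 24 h. The 36 h sections gave 3.998 and 8.28 CPM and the 48 h sections 4.91, 5.80, 7.60 and 9.64 CPM. The 24 h sections lay below all others, and 48 h D lay within the 0 h range. It was lower at 24 h (log2 fold change -1.50 ± 0.33, adjusted p = 0.00491, edgeR), missed the threshold at 36 h (-0.61 ± 0.32, adjusted p = 0.168, though 0.0355 without 36 h section B) and again at 48 h (-0.42 ± 0.26, adjusted p = 0.203, and 0.10 under total-count scaling), and was higher at 48 h than at 24 h (1.07 ± 0.32, adjusted p = 0.0243).

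H2-DMb1, the beta subunit, was at 6.19, 7.16 and 7.80 CPM in uninjured sections, then 3.79 and 2.68 CPM (24 h), 5.07 and 7.08 CPM (36 h), and 4.98, 5.25, 7.19 and 9.25 CPM (48 h). As for H2-DMa, the lowest values were those at 24 h, and the 48 h and 0 h sections overlapped. It was lower at 24 h (-1.11 ± 0.29, adjusted p = 0.0106, edgeR), with the call lost without 24 h section B (adjusted p = 0.0928), missed the threshold at 36 h (-0.21 ± 0.28, adjusted p = 0.592) and again at 48 h (-0.08 ± 0.23, adjusted p = 0.804, with 0.22 and 0.45 under total-count scaling), and was higher at 48 h than at 24 h (1.04 ± 0.28, adjusted p = 0.0156). The H2-DM subunits were the only 2 of the 7 genes called between injured times, against 16.2% of all genes higher at 48 h than at 24 h, and neither call was made with the section letter as a block (0 of 7 genes) or without 24 h section B, nor that of H2-DMa without 24 h section A (adjusted p = 0.131).

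Ciita, the coactivator, gave 14 to 90 UMIs per section. It was at 0.682, 0.699 and 1.05 CPM at 0 h, 0.710 and 0.606 CPM at 24 h, 1.27 and 0.400 CPM at 36 h, and 0.680, 0.745 and 0.861 CPM in 48 h sections A to C with 1.30 CPM in D. The groups overlapped at every time, and the lowest and nearly the highest section were both at 36 h. Its log2 fold changes of -0.28 ± 0.47, 0.06 ± 0.46 and 0.16 ± 0.37 passed no test (edgeR adjusted p = 0.666, 0.938 and 0.745).

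In neither step between successive injured times (24 to 36 h, 36 to 48 h) was any of the 7 genes called by edgeR, against 15.6% and 3.05% of all genes in either direction, and DESeq2 called 1 and 0. At an unadjusted p under 0.05 there were 2 genes for the former, H2-DMa and H2-DMb1 (log2 fold change 0.89 ± 0.36 and 0.90 ± 0.31, unadjusted p = 0.0308 and 0.0151), and 0 for the latter.

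The stoichiometry of the transcripts shifted with time. Within a section, the UMIs of H2-DMa and H2-DMb1 together were divided by those of H2-Aa, H2-Ab1 and H2-Eb1, a ratio that depends on no scaling. There were 8.58, 8.87 and 7.82 H2-DM UMIs per 100 chain UMIs in 0 h sections 2, 3 and 4, then 12.9 and 11.9 in the 24 h pair, 15.7 and 16.4 in the 36 h pair, and finally 19.04, 22.3, 16.5 and 18.3 in the 48 h sections, A first. No 2 time points overlapped, and the group means were 8.42 ± 0.55, 12.4 ± 0.74, 16.0 ± 0.52 and 19.03 ± 2.4 (SD, n = 3, 2, 2 and 4 sections). Cd74 followed another course, with 0.783 to 0.893 UMIs per chain UMI at 0 h, 1.24 and 1.27 at 24 h, 1.001 and 0.900 at 36 h, and 0.776 to 0.970 at 48 h. The 24 h sections thus stood above all others, while the 48 h and 0 h sections overlapped. Both ratios were computed after the levels had been seen and were given no test, and no ratio of other genes is given beside them.

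**Figure D2:**
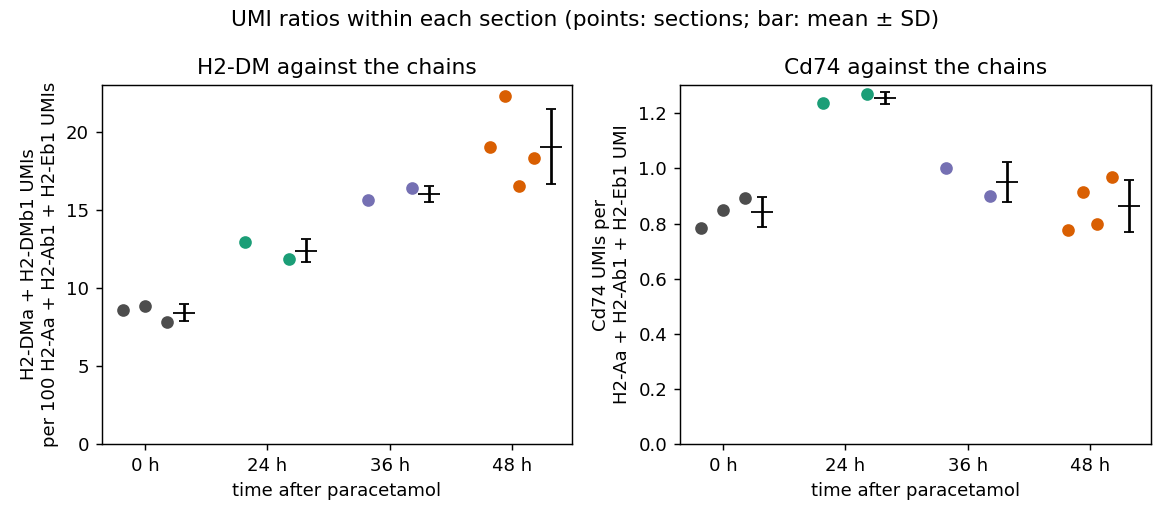
UMIs of H2-DMa plus H2-DMb1 per 100 chain UMIs (left) and of Cd74 per chain UMI (right) in each section by time after paracetamol, with bars for the mean ± SD. The H2-DM ratio steps from 7.82-8.87 at 0 h to 16.5-22.3 at 48 h with no overlap between times, and the Cd74 ratio is highest at 24 h.

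Other genes of the pathway are described by list, each against 0 h unless another time is named. Of all genes tested, 18.6%, 12.4% and 20.9% were lower at 24, 36 and 48 h. The share that was higher is not given here, so the counts for these lists and for the cell markers below are descriptions. Of the other class II genes, the DO subunits H2-Oa and H2-Ob and the paralog H2-DMb2 were tested and none was called against 0 h, with H2-DMb2 at 0.734, 0.444, 0.979 and 0.946 CPM and H2-Ob at 0.759, 0.422, 0.764 and 0.645 CPM on average at 0, 24, 36 and 48 h. H2-DMb2 was higher at 48 h than at 24 h (log2 fold change 1.08 ± 0.38, adjusted p = 0.0496, edgeR). H2-Eb2 was below the filter on low counts.

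Of the 7 factors that read the X and Y boxes, 1 rose at every time, 0 fell at 24 h, and 1 fell at both later times. Nfya, the NF-Y subunit that contacts the CCAAT letters, rose from 4.51 CPM at 0 h to 7.36, 6.57 and 8.14 CPM (edgeR adjusted p = 0.00281, 0.0184 and 0.000368). Rfxank, an RFX subunit, was at 21.99 CPM at 0 h and fell to 9.60 CPM at 36 h and 12.98 CPM at 48 h (adjusted p = 0.00783 and 0.0124). The other 5 passed no test against 0 h, Nfyb (34.4 CPM at 0 h and 33.5 CPM at 48 h) and Nfyc (19.2 CPM at both) among them. Between injured times, Rfxap, another RFX subunit, was lower at 36 h and at 48 h than at 24 h (18.8 CPM at 24 h, then 12.3 and 12.5 CPM, edgeR adjusted p = 0.0225 and 0.00481), and Rfxank was lower at 36 h than at 24 h (adjusted p = 0.0439).

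Of the 7 interferon gamma pathway genes tested, Ifngr1, the ligand-binding receptor chain, was higher at every time (28.4 CPM at 0 h and 57.5 CPM at 48 h, adjusted p = 0.000354, edgeR) and Irf1 was higher at 48 h (15.3 and 20.9 CPM, adjusted p = 0.0195). The kinase Jak1 was at 57.6, 66.2, 62.7 and 59.6 CPM at 0, 24, 36 and 48 h and passed no test. Ifng itself was below the filter on low counts.

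Of 3 endosomal proteases tested, 2, 1 and 2 were higher and none lower at 24, 36 and 48 h. Lgmn, asparagine endopeptidase, rose from 97.8 CPM at 0 h to 187, 205 and 316 CPM (adjusted p = 0.0213, 0.0178 and 0.000463, edgeR). Ctss, cathepsin S, which cuts the invariant chain in antigen-presenting cells, was at 67.0, 49.4, 98.9 and 154 CPM and was higher at 48 h (adjusted p = 0.0122). Ctsl was higher at 24 h (1047 CPM against 761 CPM, adjusted p = 0.0437) and passed no test at 36 or 48 h.

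Some class I presentation genes also fell. Of 18 tested, 10, 4 and 7 were lower and 2, 1 and 0 higher at 24, 36 and 48 h. B2m, the light chain, was at 2039 CPM at 0 h and at 766, 1089 and 1121 CPM afterwards (adjusted p = 0.00036, 0.00698 and 0.00135, edgeR), and H2-K1 was at 1637 CPM and then at 669, 796 and 745 CPM (adjusted p = 0.00016, 0.0014 and 8.4e-05). H2-Q6 fell from 47.0 to 24.9 CPM at 48 h (adjusted p = 0.00432), although reads of H2-K1, H2-D1 and the H2-Q and H2-T genes can be shared among near-identical copies. Of 5 costimulatory genes tested, 3, 1 and 3 were higher and none lower at 24, 36 and 48 h, with Cd80 at 0.169 CPM at 0 h and 0.608 CPM at 48 h (adjusted p = 0.00507) and Icosl at 0.820 and 2.04 CPM (adjusted p = 0.00484).

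Against 0 h, markers of the cells known to express class II did not move as 1 group. Of 10 conventional dendritic cell genes, 3, 5 and 6 were higher and none lower at 24, 36 and 48 h, and their summed level was 17.2 to 21.6 CPM at 0 h and 28.9 to 39.6 CPM after APAP. Itgax rose from 0.684 CPM at 0 h to 2.91 CPM at 48 h (adjusted p = 0.00015, edgeR) and Irf8 from 7.65 to 16.1 CPM (adjusted p = 0.000826), while Zbtb46 was at 5.73 and 4.96 CPM and passed no test. The mean sum was 19.4 CPM at 0 h and 34.7 CPM at 48 h, so Irf8 made up much of its rise. Xcr1 was at 0.178 and 0.182 CPM and Ccr7 at 0.375 and 0.241 CPM at these times. Of 9 Kupffer cell genes, 1, 1 and 3 were higher and 3, 1 and 0 lower at the 3 times, with a summed level of 760 to 873 CPM at 0 h and 683 to 1578 CPM after APAP. Their median log2 fold change was -0.51, -0.12 and 0.39 at 24, 36 and 48 h, with 3, 4 and 7 of the 9 above 0. Marco, a scavenger receptor, rose from 16.1 CPM to 264 CPM at 24 h and 122 CPM at 48 h (adjusted p = 2.1e-05 and 2.4e-05), and C1qb from 154 to 263 CPM at 48 h (adjusted p = 0.0416). The mean Kupffer cell sum was 821 CPM at 0 h and 948 CPM at 24 h, a smaller rise than that of Marco alone. Of 9 genes of recruited monocytes and macrophages, 6, 6 and 8 were higher and none lower, Cd68 at 18.1 CPM at 0 h and 104 CPM at 48 h (adjusted p = 7.2e-05) and Lyz2 at 196 and 643 CPM (adjusted p = 0.000407) among them, and their sum rose from 280-301 CPM at 0 h to 357-575 CPM at 24 and 36 h and 746-1351 CPM at 48 h.

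Of 6 B cell genes none was called at 24 or 36 h and Ighm was lower at 48 h (8.40 CPM at 0 h and 4.39 CPM at 48 h, adjusted p = 0.0203, edgeR), while Cd79b was at 1.65 and 2.19 CPM and passed no test. The B cell sum was 10.9 to 14.1 CPM at 0 h and 5.17 to 13.7 CPM after APAP. Its mean was 12.4 CPM at 0 h and 8.95 CPM at 48 h, a smaller fall than that of Ighm alone, and the median log2 fold change of the 6 genes at 48 h was 0.04. Of 5 T cell genes 2, 1 and 2 were lower, Cd4 at 1.08 CPM at 0 h and 0.449 CPM at 48 h (adjusted p = 0.0362) among them. Of 3 NK cell genes tested 2, 1 and 1 were lower, Nkg7 at 1.68 and 0.932 CPM (adjusted p = 0.00713) among them. Of 6 liver endothelial genes 2 were lower at each time and 1 was higher at 24 h, the lower ones being Clec4g (115 CPM at 0 h and 62.8 CPM at 48 h, adjusted p = 0.000149) and Kdr (48.7 and 28.4 CPM, adjusted p = 0.00016), and Stab2 passed no test (56.7 and 49.3 CPM). Of 4 neutrophil genes tested all 4 were higher at each time, of 6 mesenchymal genes 2, 5 and 5 were higher and 1, 1 and 0 lower, and of 3 cholangiocyte genes none was called. The part of these cells in the fall of class II transcripts was not tested.

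Over the 11 sections, the tested genes whose log2 level ran closest to the class II sum (H2-Aa, H2-Ab1, H2-Eb1 and Cd74) were Acp5, Rfng, Ltbp4, H2-K1 and Bcap31 (Pearson r = 0.977, 0.974, 0.957, 0.952 and 0.949, n = 11 sections). The sections fall into a 0 h and an injured cluster, so these values mostly restate that split.

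In space, class II UMIs were spread thinly over the whole uninjured section and were sparser and more concentrated after APAP. With spots thinned to 5000 UMIs, which left out 1 to 260 spots per section, 66.7% to 76.3% of spots at 0 h held at least 1 UMI of the class II sum, 36.1% to 38.3% at 24 h, 38.5% to 51.9% at 36 h and 32.2% to 56.1% at 48 h (unthinned 93.7% to 97.8%, 70.1% to 72.1%, 66.2% to 81.9% and 63.2% to 92.5%). For H2-Aa the thinned share was 24.6% to 25.9% of spots at 0 h and 7.43% to 16.7% after APAP, and for Ciita it was under 0.9% in every section. The 5% of spots richest in class II held 21.8% to 23.02% of its UMIs at 0 h and 25.6% to 36.7% after APAP; the mean count was lower in the latter, and its part was not tested. Array spots off the tissue, which receive RNA that has spread, carried class II at 59.8% to 94.6% of the CPM of tissue spots, so a single UMI does not place an expressing cell.

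A spot's class II level followed that of its touching neighbours only loosely (r = 0.159 to 0.303 over the spots of a section, as a description). The variance of thinned class II UMIs was 1.75, 2.44 and 2.98 times their mean in 0 h sections 2, 3 and 4 and 1.78 to 2.65 times it after APAP, where random sampling alone would give about 1.

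**Figure D3:**
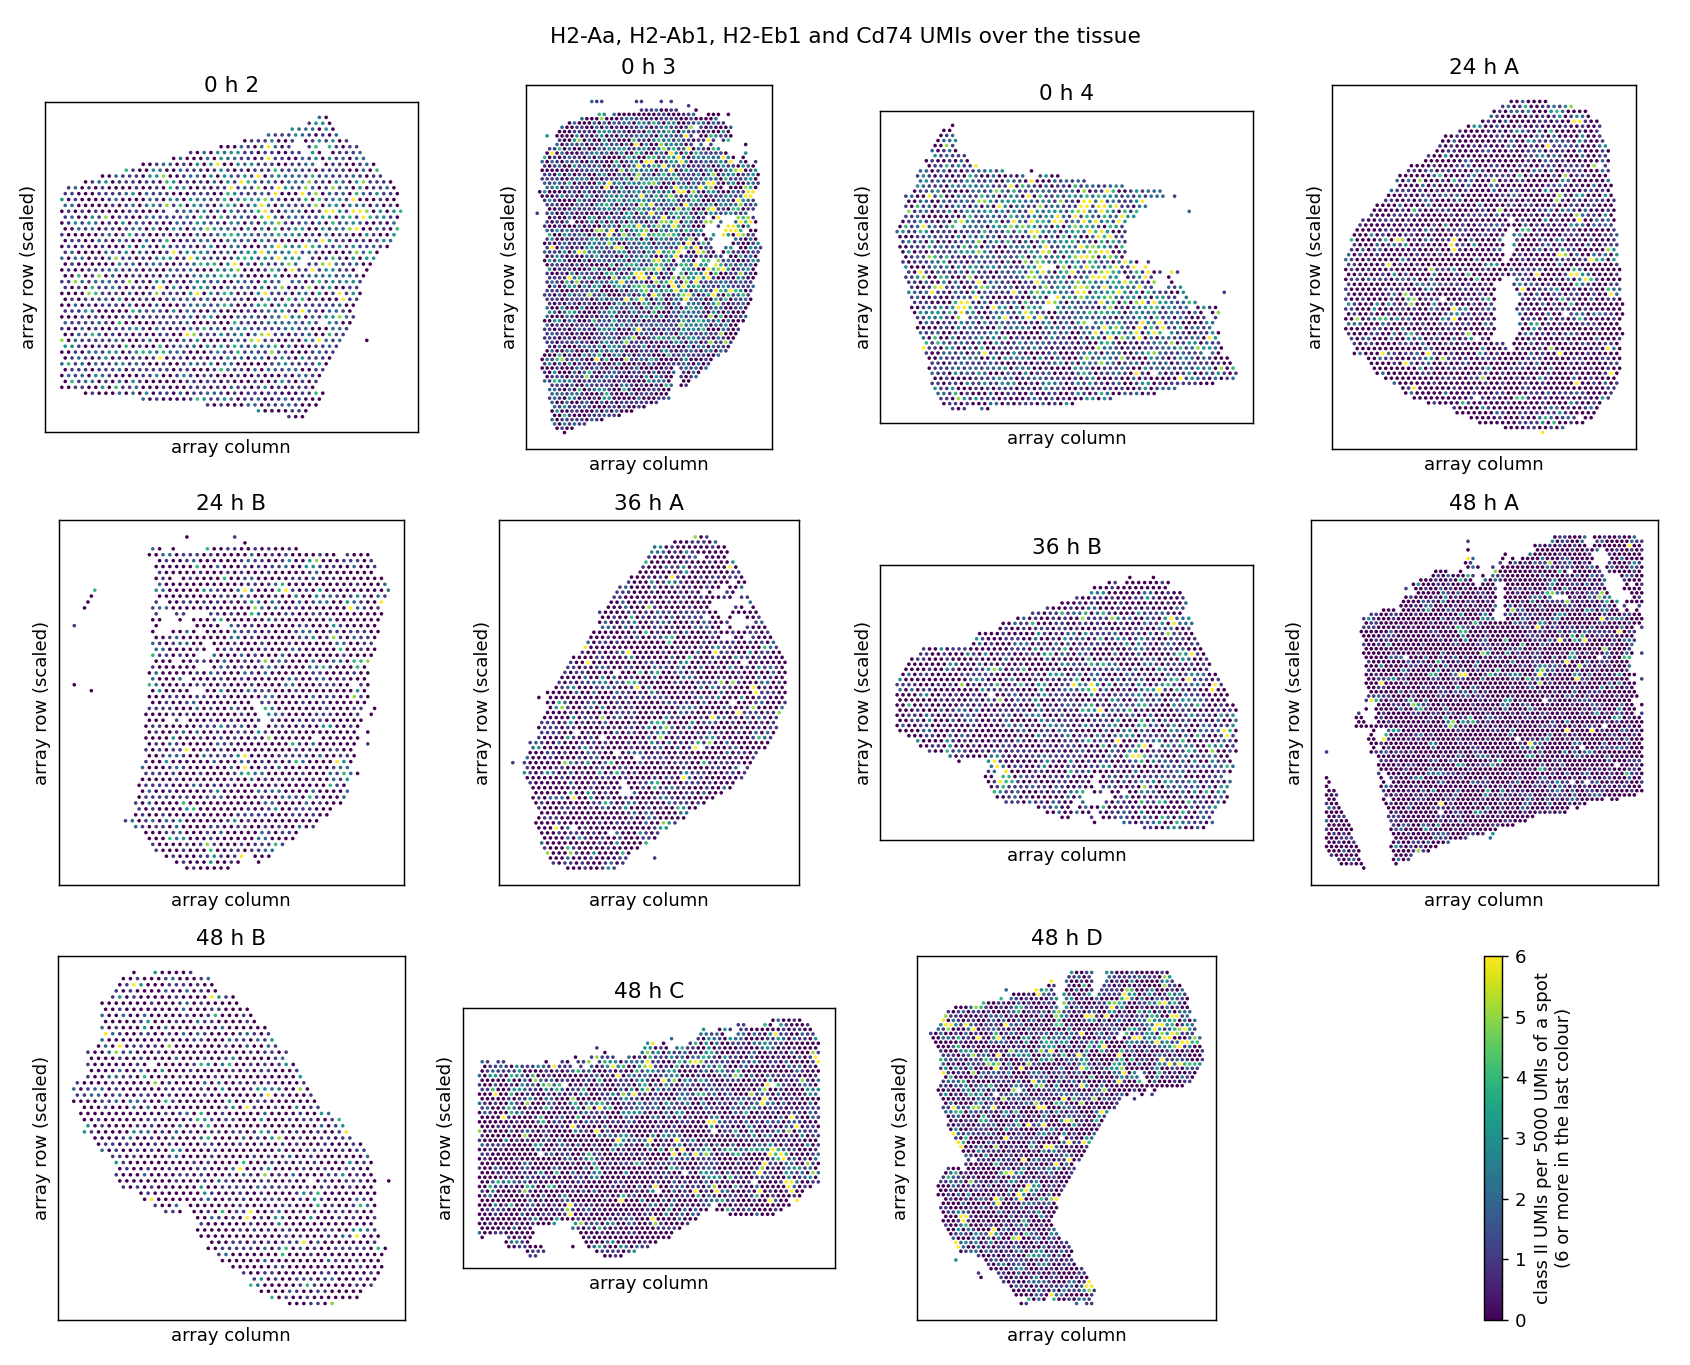
Each spot of the 11 sections at its array position, coloured by its UMIs of H2-Aa, H2-Ab1, H2-Eb1 and Cd74 after thinning to 5000 UMIs, with 6 or more in the last colour. Spots with at least 1 such UMI make up 66.7% to 76.3% of the sections at 0 h and 32.2% to 56.1% of those after paracetamol.

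After APAP, class II was lower in the spots richest in portal-side hepatocyte genes than in those poorest in them. Hepatocytes near the portal triad and near the central vein express different genes, and APAP injures those around the central vein. Each spot was scored by 12 portal-side genes (Pigr, Hsd17b13 and Cyp2f2 among them), hepatocyte-low spots were set aside, and the spots of a section were divided into quintiles. The score's own genes changed with injury, since 7, 6 and 7 of the 12 were lower and 2, 1 and 0 higher at 24, 36 and 48 h. The 3 cholangiocyte genes, which mark bile ducts, were 2.01 to 2.99 times as high in the highest as in the lowest quintile at 0 h, but 0.467 and 0.782 times as high in 24 h B and 36 h B and 1.07 to 3.48 times in the other 6 injured sections. Whether the quintiles mark the same zone before and after APAP was not tested. The class II sum is given here as CPM of the spots' own total, without TMM. In uninjured sections 2, 3 and 4 it stood at 220, 226 and 303 CPM in the lowest quintile and at 252, 267 and 342 in the highest. At 24 h it stood at 199 and 183 in the lowest quintile and 93.03 and 70.8 in the highest, in A and B. Both slopes thus ran opposite to those of the uninjured sections. At 36 h the values were 239 and 270 in the lowest quintile against 75.4 and 121 in the highest. At 48 h A to D stood at 195, 214, 330 and 416 in the lowest quintile and at 53.0, 63.2, 101 and 152 in the highest. Thus in the portal-rich quintile every injured section lay below every 0 h section, while in the portal-poor quintile 36 h A and B, 48 h C and 48 h D lay at or above the lowest 0 h value. The share of all genes that separate in this way within a quintile is not given here.

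The log2 ratio of the portal-rich to the portal-poor quintile averaged 0.20 ± 0.04 at 0 h (SD, n = 3 sections, all above 0) and -1.51 ± 0.29 after APAP (n = 8 sections, none above 0), a difference of -1.72. For single genes, sums of the spot classes were fitted over 13126 genes with the section as a block. This fit was chosen after seeing the data, so its p only describe the spread between sections, as edgeR estimates it with information shared over genes. All 7 genes were lower in portal-rich than in portal-poor spots of injured sections, against 32.6% of all genes tested. The log2 ratio was -1.26 ± 0.08 (SE) for H2-Aa, -1.03 ± 0.08 for H2-Ab1, -1.13 ± 0.07 for H2-Eb1, -1.15 ± 0.07 for Cd74, -0.99 ± 0.10 for H2-DMa, -0.90 ± 0.13 for H2-DMb1 and -0.77 ± 0.26 for Ciita, with edgeR adjusted p from 5.2e-10 to 0.0151. These values are smaller than the CPM ratio because TMM rescales the spot classes, and under total-count scaling they ran from -1.14 to -1.63.

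At 0 h the same contrast called 1 of 7, H2-DMa (0.51 ± 0.14, adjusted p = 0.0486, edgeR), against 2.34% of all genes higher, and total-count scaling or leaving out any of 8 sections, each of those at 0 h included, removed that call. The contrast after APAP was lower than at 0 h for 6 of 7 genes, all but Ciita, against 13.4% of all genes (from -0.76 ± 0.24 for H2-DMb1, adjusted p = 0.0207, to -1.50 ± 0.17 for H2-DMa, adjusted p = 1.8e-05), and for Ciita it was -0.999 ± 0.49 (adjusted p = 0.136).

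Each quintile was then compared with its counterpart at 0 h. In portal-rich spots 6 of the 7 genes were lower at 24 h, 5 at 36 h and 5 at 48 h, against 12.6%, 4.74% and 6.41% of all genes, with H2-Aa at log2 fold changes of -2.56 ± 0.47, -1.86 ± 0.45 and -2.05 ± 0.35 (adjusted p = 0.00395, 0.0335 and 0.00586, edgeR). The 36 h count fell to 0 without any of the 3 sections at 0 h or without 36 h A, and to 2 without 36 h B, and the 24 h count fell to 3 without 24 h B. In portal-poor spots 3 were lower at 24 h (H2-Aa, H2-Ab1 and H2-Eb1), 0 at 36 h and 1 at 48 h (H2-Aa, -0.62 ± 0.21, adjusted p = 0.0257), against 19.6%, 16.6% and 27.2% of all genes. For the 36 h count of 0, 2 genes had an unadjusted p under 0.05 and total-count scaling gave 0. Single sections moved these counts: at 24 h it was 1 without 24 h A or B; at 36 h it was 1, 1 and 2 without 48 h A, B and D; at 48 h it was 0 without 0 h section 4, 2 lower without 48 h C, 4 lower without 48 h D, and 2 and 1 higher with none lower without 48 h A and B. The portal-poor values also depend on the scaling, since total-count scaling gave 1 lower at 24 h and, at 48 h, 3 higher and none lower (H2-DMa 1.25, H2-DMb1 1.24 and Ciita 1.28 on the log2 scale).

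**Figure D4:**
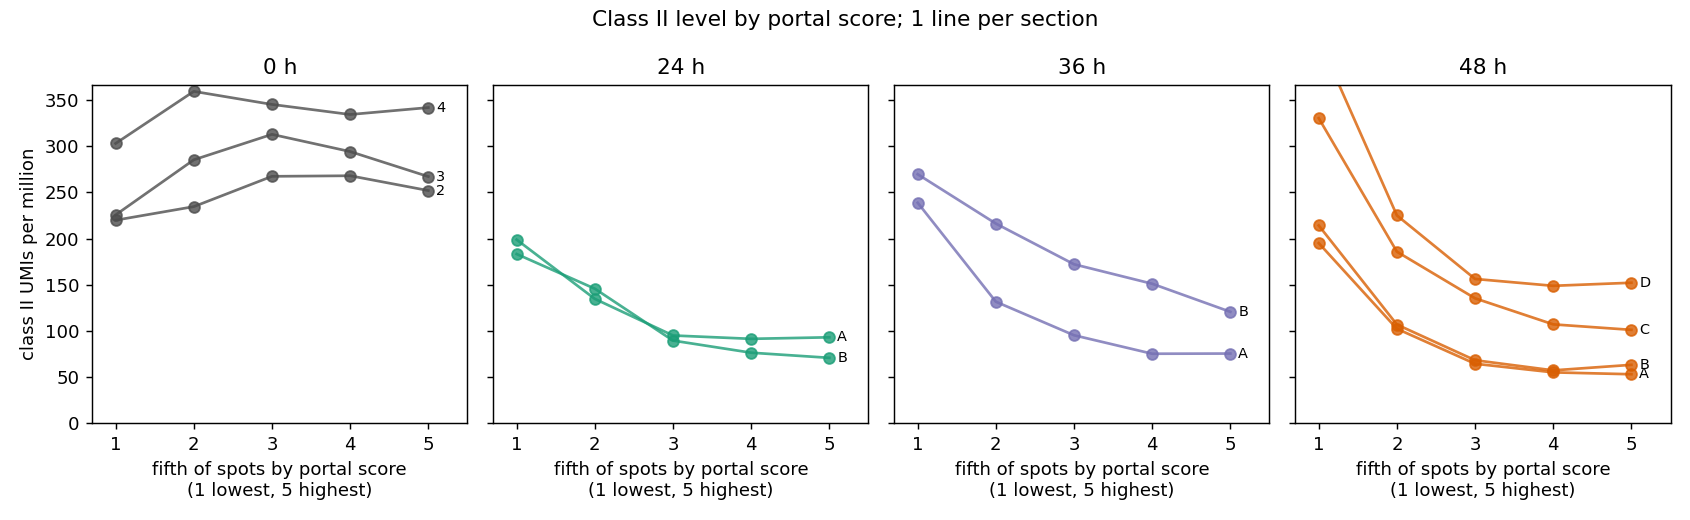
Class II CPM (y axis, linear from 0) in quintiles of spots ordered by portal score (x axis, 1 lowest and 5 highest), 1 line per section and 1 panel per time. The 0 h lines stay between 220 and 359, and all 8 injured lines are lower in the highest than in the lowest quintile, at 53.0 to 152 in the highest.

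Other transcripts shared this slope after APAP, and their part in it was not tested. In the injured sections the mean log2 ratio of portal-rich to portal-poor spots was -2.13 for the 9 recruited monocyte and macrophage genes, -1.23 for the 10 dendritic cell genes, -0.94 for the 9 Kupffer cell genes and -1.52 for the 6 B cell genes, each below 0 in 8 of 8 sections, against 0.11, 0.02, 0.23 and -1.01 at 0 h. For the neutrophil and mesenchymal genes it was -2.09 and -1.52, also below 0 in 8 of 8 sections, against -0.14 and -0.56 at 0 h. For the T cell and endothelial genes it was -0.85 and -0.59, below 0 in 8 of 8 sections, against 0.01 and -0.25 at 0 h. For the cholangiocyte genes it was 0.39, with 6 of 8 sections above 0, against 1.37 at 0 h. For the 18 class I genes it was -0.11, with 1 of 8 sections above 0. The portal-poor quintile also held less of the hepatocyte list than the portal-rich quintile, with 64658 to 90166 CPM against 95159 to 116821 CPM after APAP, as it did at 0 h, and every contrast in CPM moves with that share.

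Spots poor in hepatocyte transcripts carried the highest class II levels at 48 h. A spot was called hepatocyte-low where its score for 6 hepatocyte genes was under the 1st percentile of spots at 0 h, and far spots lay at least 3 grid steps from any such spot. Only the 48 h sections among the injured had at least 20 spots in both classes, with 90, 24, 138 and 44 hepatocyte-low spots in A to D. There class II stood at 349, 495, 518 and 861 CPM in hepatocyte-low spots and at 86.7, 99.6, 146 and 200 in far spots. The sections agree in direction, and the log2 ratio averaged 2.06 ± 0.20 (SD, n = 4 sections), a 4.18-fold difference. In 0 h sections 2 and 3, by contrast, hepatocyte-low spots stood at 363 and 340 and far spots at 247 and 276, log2 ratios of 0.56 and 0.30. The far spots of every 48 h section lay below those of the 0 h sections. The hepatocyte-low spots of 48 h B, C and D lay above those of 0 h sections 2 and 3, whereas 48 h A, at 349, lay between these sections. The share of all genes that separate in such ways is not given here.

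With the section as a block, all 7 genes were higher in hepatocyte-low than in far spots at 48 h, against 27.3% of all genes higher. The log2 ratio was 1.44 ± 0.10 (SE) for H2-Aa, 1.56 ± 0.08 for Cd74, 1.14 ± 0.17 for H2-DMa, 1.06 ± 0.18 for H2-DMb1 and 1.79 ± 0.40 for Ciita (edgeR adjusted p from 2.5e-17 to 0.000323), the last resting on 4 to 9 UMIs in the hepatocyte-low spots of a section. This fit too was chosen after seeing the data, and its sections came from a single liver. Its p rest on a spread between sections that edgeR estimates with information shared over genes. They are therefore smaller than so few sections alone could give. Leaving out each 48 h section in turn left the count at 7. The level declined over the first 2 grid steps. It stood at 168, 176, 265 and 439 CPM in spots touching a hepatocyte-low spot and at 86.9, 71.9, 140 and 194 in those at 2 steps. It did not decline further in B, C and D, whose far spots stood at 99.6, 146 and 200 CPM, and those of A stood at 86.7 CPM. In the contrast of hepatocyte-low with far spots at 48 h, the recruited monocyte and macrophage genes stood at a mean log2 ratio of 2.55, the mesenchymal genes at 2.19, the neutrophil genes at 2.27, the dendritic cell genes at 1.79, the Kupffer cell genes at 1.53, the B cell genes at 1.52 and the class I genes at 0.21. Their part in the class II difference was not tested.

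Across thinned spots within a section, each of the 7 genes was set against the summed class II UMIs of the others. The mean r over the 11 sections was 0.248 for Cd74, 0.210 for H2-Ab1, 0.204 for H2-Aa and 0.197 for H2-Eb1, and 0.072 for H2-DMa, 0.075 for H2-DMb1 and 0.026 for Ciita, whose UMIs are few. Such counts are sparse and the points share a library, so these values are descriptions.

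The 10 other genes that ran closest to the class II sum over spots, among 9367 detected in at least 1% of thinned spots of every section, were Tmsb4x (mean r = 0.323), Lyz2 (0.285), Ctsb (0.245), Ftl1 (0.237), Tmsb10 (0.232), Psap (0.232), Ccl6 (0.226), Lgals3 (0.225), Actb (0.222) and Tyrobp (0.218). Most are cytoskeletal, lysosomal or myeloid genes: Lyz2 encodes lysozyme, Ctsb cathepsin B, Psap a lysosomal saposin precursor and Tyrobp a myeloid signalling adaptor. The order differed with time. Tmsb4x led at every time, with mean r from 0.234 at 0 h to 0.392 at 48 h. The next at 0 h were mitochondrial, mt-Co1 (0.200), mt-Atp6 (0.197), mt-Nd2 (0.192) and mt-Co2 (0.189), which at 48 h stood between -0.143 and -0.053. At 24 h Lyz2, Ccl6, Ftl1 and Hbb-bs followed Tmsb4x, at 36 h Lyz2, Ftl1, Psap and Fth1, and at 48 h Ftl1, Lyz2, Ctsb and Tmsb10.

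Among the marker lists, the recruited monocyte and macrophage sum had a mean r with class II of 0.188, 0.308, 0.309 and 0.384 at 0, 24, 36 and 48 h, and the Kupffer cell sum 0.243, 0.241, 0.229 and 0.307. The dendritic cell sum gave 0.058, 0.116, 0.121 and 0.164 and the B cell sum 0.011, 0.099, 0.042 and 0.095, both from far fewer UMIs. The hepatocyte sum stood at 0.065 at 0 h and at -0.326, -0.368 and -0.424 after APAP, the widest change among the lists.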

How the data were processed

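Visium libraries of 11 mouse liver sections were used. The deposited values are raw UMI counts per gene and spot barcode, made by the authors with Space Ranger 1.0.0 on mm10 per the submitters' processing notes. Spots off the tissue, spots under 800 genes and spots over 20% mitochondrial UMIs were dropped, the latter 2 filters removing 0 to 103 spots per section, and the sections shared all 4992 array barcodes. Section totals ran from 31292663 to 67045372 UMIs. Counts summed per section were tested with edgeR 4.0.16 in R 4.3.3 (quasi-likelihood, TMM, filter on low counts, 14821 genes, Benjamini-Hochberg), with all 4 times in 1 fit, and DESeq2 1.42.0 was an alternative. Spots were thinned to 5000 UMIs for levels over spots and to 2000 UMIs for the scores that define spot classes. Spot classes were summed per section and fitted with edgeR over all genes; these fits and the ratios between the genes were chosen after seeing the data. Exact permutation tests over sections of the class II sum were run, but their p is not given. The reason is that the genes, like the gene lists, were chosen with earlier results of these data known. The same limit applies to the edgeR p printed here, which describe the spread between sections, estimated with information shared over genes. The scripts were tested on simulated data.

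All 7 genes are described. From each other list, the text names at most 2 genes highest in mean CPM and at most 2 called genes with the largest change at 48 h. Not every gene so chosen is reported here. Genes most like the 7 were taken by the mean correlation with the class II sum over spots or over sections. Alternatives were total-count scaling, DESeq2, no filter on low counts, leaving out each section, the section letter as a block, and other spot thresholds. Nothing in the labels ties sections to mice, slides or batches.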

Additional observations from a re-analysis of the deposited data

Results flagged for a closer look

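For 6 genes the portal-rich to portal-poor contrast differed between injured and 0 h sections by the test of the difference itself (edgeR over 13126 genes, section as a block). On the log2 scale the injured minus 0 h difference was -1.395 for H2-Aa, -1.311 for H2-Ab1, -1.324 for H2-Eb1, -1.501 for H2-DMa, -0.7598 for H2-DMb1 and -1.464 for Cd74. Under total-count scaling these became -1.72, -1.63, -1.65, -1.83, -1.08 and -1.78, and Ciita, at -0.999 on the TMM scale and not called, was called at -1.32.

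Among the 48 h sections, the portal-rich to portal-poor log2 ratio of H2-DMa was -1.07 in section A and -1.59, -1.58 and -1.54 in B, C and D. The gap of A to its nearest neighbour was 0.9026 of the whole range, above the critical value of 0.829 for 4 samples. It was the only such value in 25 groups checked, where chance gives about 1 in 20.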

How the results depend on the processing

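Of 686 values recomputed under alternatives, 615 kept their direction and side of the threshold or, for counts of calls, stayed within 1.5 times the main count. Those counts include 1 that turned, portal-poor spots at 48 h without 48 h B (1 higher in place of 1 lower). DESeq2 called 6, 4 and 4 of the 7 genes at 24, 36 and 48 h against 0 h, as edgeR did, and 1 between 36 h and 24 h where edgeR called 0. Under total-count scaling the signs turned for Ciita at 24 h (0.051), H2-DMb1 at 36 h (0.22), H2-DMa at 48 h (0.10) and H2-DMb1 at 48 h (0.45), none of them called in either fit, and the spot-class counts became 0 for 0 h portal-rich against portal-poor spots and 1 and 3 for portal-poor spots at 24 h and 48 h. The cause was not tested. With hepatocyte-low spots taken below the 5th percentile the class II log2 ratio was 1.62. The 36 h call of Cd74 was also lost with no filter on low counts (adjusted p = 0.0504, edgeR).

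Leaving out 1 section at a time gave 4 to 6 genes called at 24 h, 1 to 4 at 36 h and 4 to 4 at 48 h against 0 h, 0 to 2 between 36 h and 24 h, 0 to 0 between 48 h and 36 h and 0 to 2 between 48 h and 24 h. The count of 1 at 36 h was without 36 h A. For spot classes the ranges were 6 to 7 for portal-rich against portal-poor spots after injury, 0 to 1 at 0 h and 5 to 6 for their difference, 1 to 4, 0 to 2 and 0 to 4 for portal-poor spots and 3 to 6, 0 to 5 and 4 to 5 for portal-rich spots at the 3 times, and 7 to 7 for hepatocyte-low spots. The class II log2 ratio ranged from -1.78 to -1.66 for injured against 0 h sections, from -1.57 to -1.46 within injured sections and from 1.98 to 2.14 for hepatocyte-low spots. Log2 fold changes against 0 h ranged from -0.47 to 0.0039 for H2-DMb1 and from -1.004 to 0.67 for Ciita at 36 h, with Ciita at -0.05 and -0.04 without 0 h sections 2 and 3, and from -0.28 to 0.041 for H2-DMb1 and from -0.071 to 0.37 for Ciita at 48 h, with H2-DMb1 at 0.02 without 48 h B.

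With the section letter as a replicate block over the injured sections, 48 h against 24 h gave 0 calls, and 1 in the same sections without the block. The letters pair nothing in the labels, and same-letter deviations correlated between -0.29 and 0.39. Sections per time, 2 at 24 h and at 36 h, and the 14 to 90 UMIs of Ciita per section limit what could be detected.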
